A study of Homo sapiens with 26 samples.

Results

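The response of A549 cells to 4 h of TGF-beta 1 was measured as the difference between the 3 arrays labelled with 4 h of treatment and the 3 arrays of untreated cells, out of 26 arrays in the series. A549 is a cell line derived from a human lung adenocarcinoma. All cells, those on the untreated arrays included, were first starved of serum for 24 h. Treated cells then received porcine TGF-beta 1 at 5 ng/mL, and arrays were made at 8 times from 0.5 to 72 h in 3 repeats of the experiment. No array was run for 2 h of the third experiment, so that 2 h has 2 arrays. RNA was hybridised to Affymetrix HG-U133 Plus 2.0 arrays, which measure each gene with 1 or more probe sets.

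TGF-beta 1 binds a receptor complex of TGFBR2 and TGFBR1, which phosphorylates SMAD2 and SMAD3. These enter the nucleus with SMAD4 and act together with other transcription factors, among them AP-1. Within the first hour the directly induced genes are transcribed, and the proteins of those genes, including inhibitors of the pathway itself, then act on further genes. In epithelial cells sustained exposure is known for epithelial to mesenchymal transition (EMT), in which cell contacts are lost and matrix and motility genes are gained.

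Levels are given as log2 of the deposited signal, to which the authors had added an offset, so that a probe set with no signal lies at 6.64 and the median probe set at 7.96. The offset makes fold changes of weakly expressed genes smaller than those of the underlying signal. Between 31192 and 31772 probe sets were detected on the 4 h arrays, against 29966 to 31904 on the untreated arrays. The actin 3′ to 5′ ratio, a measure of RNA integrity, was 1.04 ± 0.0251 at 4 h and 1.10 ± 0.0298 in untreated cells (SD, n = 3 each). The first principal component of the 6 arrays held 44.7% of the variance and placed the 4 h arrays at 12.7 to 31.7 and the untreated arrays at -29.2 to -20.7. The third replicate at 4 h lay nearest to the untreated arrays. Of a list of 13 genes that mark A549 cells and lung epithelium, 11 had a mean level above 9 at 4 h and 10 in untreated cells. Keratin 19 was below that level in both groups. No marker of alveolar type II cells, fibroblasts or endothelium was above 9 in either group, and 1 of 8 blood and immune markers was, the lysozyme gene LYZ, in both.

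By 4 h the transcriptome had moved in both directions, with more genes higher than lower. Of 14771 genes tested with limma, 900 were higher at 4 h (6.09%) and 455 were lower (3.08%) at a Benjamini-Hochberg adjusted p under 0.05, which is 9.17% of all genes in either direction. Among them, 308 rose (2.09%) and 102 fell (0.691%) by at least 2-fold. The median log2 change of all genes was -0.02. All 3 arrays at 4 h lay above all 3 untreated arrays in 1825 genes (12.4%) and below them in 1454 genes (9.84%), and of the genes that passed the test 869 and 428 were separated in this way. With the experiment as a block, as in the authors' own model, 1139 were higher and 672 lower. Without replicate 1 at 4 h 869 genes passed, and without replicate 2 at 4 h 836 genes passed. Of the genes that were higher, 575 (63.9%) had in replicate 3 the 4 h value nearest to the untreated mean, as did 281 (61.8%) of those that were lower. The size of the response thus differed among the 3 arrays at 4 h, with replicate 3 most often the smallest. The part that this array has in single results was not tested beyond leaving it out, which gave 1427 genes. Because the cells were measured in bulk, less RNA per cell and fewer cells that express a gene cannot be told apart.

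**Figure D1:**
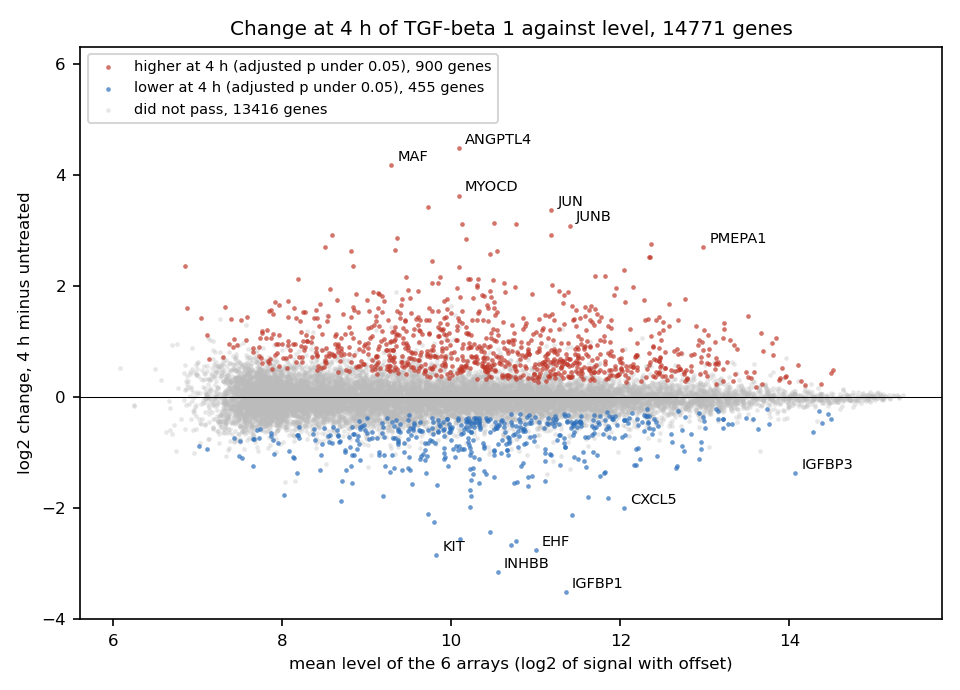
Log2 change at 4 h against untreated (vertical axis) and mean log2 level of the 6 arrays (horizontal axis) for each of the 14771 genes tested. Red points are the 900 genes that were higher at 4 h, blue points the 455 that were lower, and grey points did not pass the test; the largest changes lie at middle levels, and the highest levels have small changes.

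The largest rise was that of ANGPTL4, a secreted inhibitor of lipoprotein lipase. Its levels were 13.17, 12.83 and 10.98 in the 3 experiments at 4 h, against 8.12, 7.65 and 7.79 in untreated cells, a log2 change of 4.48 ± 0.51 (SE, adjusted p = 1.12e-05) or 22.3-fold on the offset scale. The groups did not overlap, which the choice of the largest rises and falls required. Replicate 3 at 4 h stood about 2 log2 units below the other arrays at 4 h. MYOCD, the myocardin gene whose product is a co-activator of smooth muscle transcription, had levels of 12.33, 12.07 and 11.31 at 4 h and 7.95, 8.51 and 8.37 in untreated cells, a log2 change of 3.63 ± 0.58 (SE, adjusted p = 0.000262). PPP1R14C, which encodes an inhibitor of protein phosphatase 1, rose by 3.42 (SE 0.39, adjusted p = 1.16e-05).

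JUN and JUNB, subunits of the AP-1 transcription factor, had the smallest standard errors among the 15 largest rises. JUN had levels of 13.21, 13.01 and 12.38 at 4 h against 9.13, 9.69 and 9.67 in untreated cells, a log2 change of 3.37 ± 0.23 (SE, adjusted p = 1.73e-08). JUNB had 12.97, 13.14 and 12.72 at 4 h against 10.00, 9.61 and 9.96 in untreated cells, a log2 change of 3.08 ± 0.22 (SE, adjusted p = 2.34e-08). In both genes the gap between the groups was wider than the range within either. The collagen gene COL1A1 rose by 3.12, with levels of 12.77, 12.52 and 11.70 at 4 h and between 9.18 and 9.26 in untreated cells, and 3 of its 5 probe sets passed the test; with their mean the change was 1.48. Others among the 15 largest rises were PIK3AP1, an adaptor of phosphoinositide 3-kinase (3.12), TNS4, a focal adhesion protein (2.91), S1PR5, a sphingosine 1-phosphate receptor (2.91, or 1.22 with the mean of its probe sets), RASGRP1, a RAS exchange factor (2.86), PLEK2, a pleckstrin that binds membranes at the actin cortex (2.85), and PGM2L1, a glucose 1,6-bisphosphate synthase (2.76).

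Promoter sequences are shown for MAF and IL11, which are among the largest changes and whose promoters hold a motif of the AP-1 and CREB families. The choice left out the genes of 1 chromosome, so that these 2 need not be the only such promoters. MAF encodes a basic leucine zipper transcription factor related to AP-1. Its levels were 11.82, 11.20 and 11.12 at 4 h and 7.83, 7.24 and 6.55 in untreated cells, a log2 change of 4.17 ± 0.57 (SE, adjusted p = 4.8e-05). The untreated values lay below the median probe set, and that of replicate 3 lay below the level of no signal. The size of this change is therefore uncertain. Of 4 probe sets tested for MAF, 3 passed, and with the mean of its probe sets the change was 1.62. IL11 encodes an interleukin of the IL-6 family with known profibrotic activity. Its levels were 10.44, 10.65 and 8.51 at 4 h and 7.38, 6.92 and 7.19 in untreated cells. The log2 change was 2.71 ± 0.46 (SE, adjusted p = 0.000415), and 1 of its 2 probe sets passed. With their mean the change was 1.53. The untreated values of IL11 also lay below the median probe set, so that the size of its change is uncertain too. The sequences run 5′ to 3′ on the strand of the gene from 250 bases before the start to 50 bases after it (RefSeq, GRCh38.p14), at chr16:79600688-79600987 on the minus strand for MAF and chr19:55370414-55370713 on the minus strand for IL11. Capitals mark the motif, which begins 45 bases before the start in MAF and 96 bases before it in IL11.
MAF: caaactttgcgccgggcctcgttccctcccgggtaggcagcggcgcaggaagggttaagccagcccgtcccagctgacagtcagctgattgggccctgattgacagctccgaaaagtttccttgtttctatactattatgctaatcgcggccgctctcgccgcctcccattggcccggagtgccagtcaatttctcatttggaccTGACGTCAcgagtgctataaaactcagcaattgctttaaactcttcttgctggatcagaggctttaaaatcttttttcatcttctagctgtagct
IL11: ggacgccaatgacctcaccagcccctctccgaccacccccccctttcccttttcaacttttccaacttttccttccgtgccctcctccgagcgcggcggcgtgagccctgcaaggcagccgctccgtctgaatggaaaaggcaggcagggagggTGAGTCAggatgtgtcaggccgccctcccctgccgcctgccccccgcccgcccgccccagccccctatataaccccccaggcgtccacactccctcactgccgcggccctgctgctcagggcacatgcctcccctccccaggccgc
The motifs searched in both strands were TGANTCA, where N is any base, and TGACGTCA. The first includes the AP-1 site TGAGTCA and is wider than that site. The second is bound by CREB and ATF proteins and by some AP-1 dimers. The 2 do not overlap in these windows. Of 30 largest changes, 23 had a promoter in the table. TGANTCA was found in 5.22% of the promoters of genes that were higher at 4 h and in 5.79% of those of genes that were lower, against 4.94% of the promoters of all genes tested. TGACGTCA was found in 3.24% and 2.11%, against 3.08%. Neither share stood far from that of all genes, and a match describes the letters and not occupancy.

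The largest fall was that of IGFBP1. IGFBP1, which encodes a binding protein of insulin-like growth factors, had levels of 9.23, 9.04 and 10.53 at 4 h, against 12.87, 13.35 and 13.12 in untreated cells, a log2 change of -3.51 ± 0.52 (SE, adjusted p = 0.000102) that left the untreated level 11.4-fold above that at 4 h. With the mean of its probe sets the change was -1.76. INHBB, the gene of the activin beta B subunit, had 8.42, 8.80 and 9.71 at 4 h against 12.06, 12.38 and 11.95 in untreated cells, a log2 change of -3.16 ± 0.36 (SE, adjusted p = 1.12e-05). KIT, a receptor tyrosine kinase, had 7.34, 8.41 and 9.42 at 4 h against 10.77, 11.75 and 11.21 in untreated cells. In all 3 genes replicate 3 was the highest of the 4 h arrays. It lay below every untreated array, as the choice of these genes required.

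EHF, an ETS transcription factor of epithelia, had levels of 8.97, 9.51 and 10.40 at 4 h against 12.02, 12.57 and 12.56 in untreated cells, a log2 change of -2.76 ± 0.38 (SE, adjusted p = 5.91e-05), and all 7 of its probe sets passed in this direction. SOX2, a transcription factor of stem and airway cells, had 8.99, 9.12 and 10.30 at 4 h against 11.92, 12.19 and 12.09 in untreated cells, and 2 of its 3 tested probe sets passed; with the mean of its probe sets the change was -1.05. PDK4, a kinase that inhibits pyruvate dehydrogenase, had a log2 change of -2.66, and FGA, the fibrinogen alpha chain, of -2.44. ST8SIA4, a polysialyltransferase, had -2.26, CEBPD, a C/EBP transcription factor, -2.13 with 1 of 3 probe sets passing, CAVIN2, a coat protein of caveolae, -2.12, and SLC7A2, a transporter of cationic amino acids, -1.82. Also among the 15 largest falls were RGCC, a regulator of the cell cycle (-1.88), and C9orf152 (-1.97). With the mean of the probe sets of a gene the changes were -1.27 for FGA, -1.13 for CEBPD and -0.78 for SLC7A2.

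**Figure D2:**
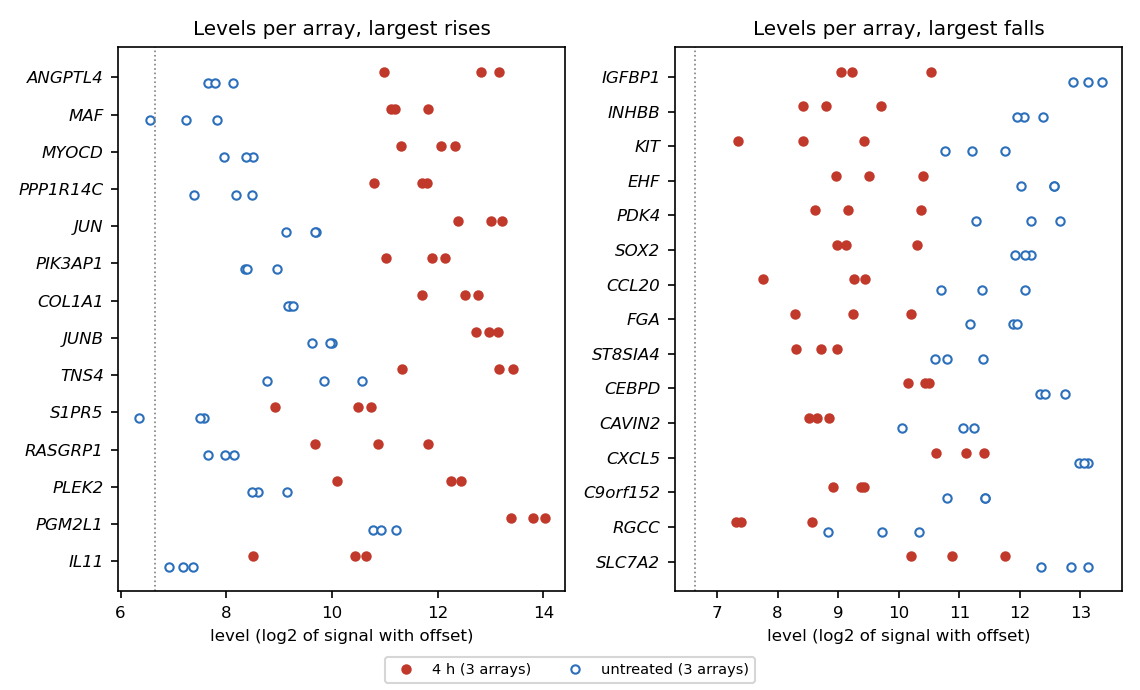
Log2 level of leading rises (left) and falls (right) on each array, with filled red points for the 3 arrays at 4 h and open blue points for the 3 untreated arrays; the dotted line is the level of no signal. Genes were drawn only where the 2 groups are separate. In ANGPTL4, TNS4, PLEK2 and IL11 1 array at 4 h, replicate 3, lies well below the other arrays at 4 h.

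Of 31 genes for SMAD feedback and direct targets, 15 were higher at 4 h and 2 were lower, beside 6.09% and 3.08% of all genes, and the median log2 change of the list was 0.67. The same 2 shares of all genes are the background for the list counts at an adjusted p that follow. For counts at an unadjusted limma p under 0.05 the background is wider, 3114 of 14771 genes in either direction. Inhibitors of signalling rose: PMEPA1, which sequesters receptor SMADs, had levels of 14.50, 14.41 and 14.10 at 4 h against 12.40, 11.09 and 11.40 in untreated cells. SMAD7, the inhibitory SMAD that blocks the receptor, had 11.71, 11.73 and 11.20 at 4 h against 9.82, 9.27 and 9.25 in untreated cells, a log2 change of 2.10 ± 0.38 (SE, adjusted p = 0.000764). SKIL, a nuclear co-repressor of SMADs, rose by 2.01 (SE 0.30, adjusted p = 0.000104), LDLRAD4, a membrane inhibitor of SMAD phosphorylation, by 2.12, and SMURF2, a ubiquitin ligase for the receptor, by 1.21. All 3 arrays at 4 h exceeded all 3 untreated arrays in each of these genes that is given by array. With the mean of the probe sets the change was 1.08 for SKIL and 1.10 for LDLRAD4.

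The receptors moved in opposite directions. TGFBR1, the type I receptor, had levels of 14.10, 13.74 and 13.83 at 4 h against 12.82, 12.48 and 12.42 in untreated cells, a log2 change of 1.32 ± 0.21 (SE, adjusted p = 0.000201). TGFBR2, the type II receptor that binds the ligand, had 11.72, 11.90 and 12.54 at 4 h against 12.96, 13.62 and 13.29 in untreated cells, a log2 change of -1.24 ± 0.24 (SE, adjusted p = 0.00147). All 3 probe sets of TGFBR1 and both of TGFBR2 passed in these directions. SMAD2, a receptor SMAD, fell by 0.39 on the log2 scale (adjusted p = 0.00896), and only 1 of its 6 probe sets passed. With the arrays at 4 h and untreated alone SMAD2 did not pass (adjusted p = 0.0606). Among targets, the matricellular genes CCN1 and CCN2 rose by 1.82 and 1.42, and the growth factor gene PDGFB by 1.67 (0.73 with the mean of its probe sets).

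Related ligands and receptors of the activin and BMP branch gave 5 higher and 1 lower of 31 genes tested, or 3 and 1 without replicate 1 or 2 at 4 h or without untreated replicate 1 or 3. The shares with all arrays were 16.1% and 3.23%, beside 6.09% and 3.08% of all genes. Those that rose included FSTL3, a secreted activin antagonist, at 11.60, 11.49 and 10.66 at 4 h against 9.93, 9.54 and 9.30 in untreated cells, and the receptor genes BMPR2 (1.57) and ACVR1, at 12.35, 12.40 and 12.66 at 4 h against 10.79, 11.02 and 11.11 in untreated cells. The gene that fell was INHBB. With the experiment as a block 7 were higher and 2 lower.

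Of 27 genes for AP-1 subunits, MAF factors and other immediate-early regulators, 9 were higher at 4 h and 0 were lower, with 12 higher and 2 lower at an unadjusted limma p under 0.05. Without replicate 1 at 4 h or without untreated replicate 2 the first count was 5. Beside MAF, JUN and JUNB, the short-lived regulators IER2 (1.38 ± 0.16, SE) and IER3 (1.16 ± 0.13, SE) passed. FOS, the best known partner of JUN, had levels of 8.96, 9.60 and 9.96 at 4 h against 9.65, 10.33 and 10.38 in untreated cells and did not pass (adjusted p = 0.382). The groups overlapped for FOS.

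Of 22 genes of the ID, HES and Notch families, 6 were higher and 0 lower, and the median was 0.35; at an unadjusted limma p under 0.05, 8 were higher and 0 lower. ID1 and ID3, which bind and block basic helix-loop-helix factors, were at 14.09, 14.45 and 14.18 (ID1) at 4 h against 12.62, 12.92 and 12.82 in untreated cells and at 13.04, 13.26 and 13.16 (ID3) at 4 h against 11.79, 11.42 and 11.01 in untreated cells. LFNG, a glycosyltransferase that modifies Notch, rose by 2.05, HEY1, a repressor downstream of Notch, by 1.88, and JAG1, a Notch ligand, by 0.60.

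Some regulators of EMT had changed at 4 h. Of 17 EMT transcription factors tested, 6 were higher and 1 was lower, with 5 further members below the filter on low values. Without replicate 1 at 4 h 3 were higher. SNAI2, a repressor of epithelial genes, had levels of 9.15, 8.86 and 9.10 at 4 h against 7.59, 7.89 and 7.02 in untreated cells, a log2 change of 1.54 ± 0.34 (SE, adjusted p = 0.00488). ETS2 rose by 1.40 and SOX4 by 0.83, whereas the forkhead gene FOXC1 fell by 1.04 on the log2 scale. SNAI1 had 8.34, 8.56 and 7.98 at 4 h against 7.48, 8.10 and 8.03 in untreated cells (adjusted p = 0.402), and ZEB1 had a change of -0.02 (adjusted p = 0.98).

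The defining markers of the transition did not pass. CDH1, the epithelial cadherin, had a mean level of 13.08 at 4 h and 13.09 in untreated cells, a log2 change of -0.02 ± 0.17 (SE, adjusted p = 0.969). CDH2, the mesenchymal cadherin, had a log2 change of 0.42 ± 0.27 (SE, adjusted p = 0.412), and FN1, fibronectin, of 0.31 ± 0.26 (SE, adjusted p = 0.566). VIM, vimentin, had 14.48, 14.31 and 13.95 at 4 h against 14.43, 13.65 and 13.79 in untreated cells (adjusted p = 0.245). A second probe set of VIM did pass, with a log2 change of 1.36, as did 1 of the 2 probe sets of CDH2, with 0.72. Of 23 mesenchymal and migration markers tested 2 were higher and 0 lower, near the background share, and 0 were higher without replicate 1 at 4 h; 4 were higher and 0 lower at an unadjusted limma p under 0.05.

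Among 34 genes of epithelial junctions and keratins, 6 were higher at 4 h and 1 was lower, or 4 and 2 without untreated replicate 2. KRT80, a keratin, rose by 1.72, CLDN4, a tight junction claudin, by 1.55, and JUP, plakoglobin, by 0.81. CLDN4 did not pass with the mean of its probe sets (0.60, adjusted p = 0.0741). Epithelial and lung lineage transcription factors gave 3 higher and 5 lower of 27 tested. Leaving out replicate 1 at 4 h or untreated replicate 1 or 3 gave 1 and 4, and leaving out replicate 2 at 4 h gave 0 and 5. The members that fell in every one of these fits were EHF, SOX2, CEBPD and FOXA2, a forkhead factor of lung and liver, which had 9.17, 9.54 and 9.95 at 4 h against 11.10, 10.97 and 11.25 in untreated cells.

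Genes of the matrix rose in part. Of 41 structural matrix genes tested, 9 were higher at 4 h and 0 were lower (14 and 2 at an unadjusted limma p under 0.05), with 11 members below the filter. THBS1, the thrombospondin that can activate latent TGF-beta, had levels of 12.28, 11.25 and 10.24 at 4 h against 9.40, 8.56 and 8.82 in untreated cells, a log2 change of 2.33 ± 0.35 (SE, adjusted p = 0.000121), and 3 of its 7 probe sets passed; with their mean the change was 0.99. The 3 arrays at 4 h were spread over about 2 log2 units and all lay above the untreated arrays. MATN2, matrilin 2, rose by 1.21. Of 44 matrix-processing enzymes and inhibitors, 10 were higher and 0 lower, and 14 and 0 at an unadjusted limma p under 0.05. Among them were P4HA3, a collagen prolyl hydroxylase (1.97), PLOD2, a collagen lysyl hydroxylase (0.94), and the urokinase receptor gene PLAUR, at 12.30, 12.53 and 11.92 at 4 h against 10.59, 10.34 and 10.90 in untreated cells. Glycosaminoglycan synthesis was divided, with 4 higher and 4 lower of 29, or 4 and 1 without replicate 1 or 2 at 4 h or untreated replicate 3. The sulfotransferases CHST11 (2.02) and CHST3 (1.52) of chondroitin sulfate rose, while GLCE, the epimerase of heparan sulfate, fell by 1.53 on the log2 scale.

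Integrins and focal adhesion genes gave 12 higher and 0 lower of 32, or 16 and 1 at an unadjusted limma p under 0.05, with a median of 0.34. TNS1, a tensin that links integrins to actin, had levels of 12.08, 12.14 and 11.43 at 4 h against 10.10, 10.00 and 10.00 in untreated cells. ITGA2, an integrin collagen receptor subunit, had 11.88, 11.26 and 10.72 at 4 h against 9.93, 9.87 and 10.02 in untreated cells. The kindlin genes FERMT1 (1.38) and FERMT2 (1.04), the paxillin gene PXN (0.99) and the actinin gene ACTN1 (0.70) also rose, with 0.73 for FERMT1 when its probe sets were averaged, and the groups of the 2 genes given by array did not overlap.

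MYOCD rose at 4 h, whereas the smooth muscle genes ACTA2 and TAGLN did not pass. Of 40 actin, myosin and smooth muscle genes, 5 were higher (12.5%, beside 6.09% of all genes) and 0 were lower. At an unadjusted limma p under 0.05 the counts were 10 and 1. Apart from MYOCD and PPP1R14C, the higher genes included the LIM protein gene FHL2, at 13.33, 13.38 and 12.83 at 4 h against 12.09, 11.75 and 11.65 in untreated cells. ACTA2, smooth muscle actin, had 10.34, 10.63 and 10.75 at 4 h against 10.81, 10.95 and 10.66 in untreated cells (adjusted p = 0.454). TAGLN, transgelin, had a log2 change of 0.21 ± 0.42 (SE, adjusted p = 0.839).

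Growth factors and receptor tyrosine kinases gave 8 higher and 4 lower of 44. These counts were 4 and 3 without replicate 1 at 4 h, 5 and 2 without replicate 2 at 4 h, 7 and 2 without untreated replicate 1, and 5 and 3 without untreated replicate 2. The EPHB2 receptor rose by 1.78. KIT and the gene of its ligand, KITLG, both fell: KITLG had levels of 9.50, 9.53 and 10.11 at 4 h against 11.29, 11.30 and 10.74 in untreated cells. With the mean of the probe sets the change was -0.79 for KITLG and -0.67 for LRIG1. Of 26 feedback inhibitors of receptor and MAPK signalling, 4 were higher, SOCS2 (1.54) and SPRY2 (0.85) among them, and 4 were lower, among them LRIG1 (-1.43), SPRY1 (-1.31) and the ERK phosphatase gene DUSP5 (-1.09). Paralogues of the Sprouty family thus moved in opposite directions.

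In the IGF system 3 genes were higher and 4 lower of 22. Without replicate 1 at 4 h or untreated replicate 3 the counts were 1 and 2, and without untreated replicate 2 they were 2 and 2. IGFBP3, the main circulating carrier of IGFs, had levels of 13.11, 13.18 and 13.84 at 4 h against 14.75, 14.77 and 14.74 in untreated cells, a log2 change of -1.38 ± 0.19 (SE, adjusted p = 4.28e-05). IGFBP4 had 12.45, 12.49 and 12.18 at 4 h against 11.43, 11.36 and 11.37 in untreated cells. The binding proteins IGFBP1 and IGFBP3 fell, and IGFBP4 rose.

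Metabolic and redox genes changed in both directions. Of 34 genes that FOXO and PPAR factors control in fuel use, 2 were higher (5.88%) and 3 lower (8.82%). All genes gave 6.09% and 3.08%, so that the higher share was near that of all genes. The called members included ANGPTL4, the largest rise, and PDK4, which was among the largest falls. Leaving out replicate 1 at 4 h or untreated replicate 3 gave 1 and 1, and leaving out untreated replicate 2 gave 2 and 1. Glycolysis and hypoxia genes gave 6 higher and 3 lower of 34, or 4 and 1 without replicate 1 at 4 h or untreated replicate 2 and 5 and 0 without replicate 2 at 4 h. PFKFB3, which makes the activator of phosphofructokinase, had levels of 12.95, 12.94 and 12.64 at 4 h against 11.74, 10.52 and 10.78 in untreated cells, and SLC2A1, a glucose transporter, rose by 0.91.

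A549 cells carry a lasting activity of NRF2, a factor that drives antioxidant genes. Of 35 NRF2 targets, aldo-keto reductases and aldehyde dehydrogenases, 1 was higher and 6 were lower, or 3 and 4 without untreated replicate 2. The gene that rose was HMOX1, heme oxygenase 1, with levels of 11.62, 11.89 and 11.75 at 4 h against 8.95, 9.65 and 8.92 in untreated cells, a log2 change of 2.58 ± 0.42 (SE, adjusted p = 0.0003). GCLC and GCLM, the subunits of the enzyme that limits glutathione synthesis, fell: GCLC had 12.09, 12.21 and 12.50 at 4 h against 13.47, 13.11 and 13.11 in untreated cells. TXNRD1, thioredoxin reductase, had 13.92, 13.80 and 14.15 at 4 h against 14.60, 14.59 and 14.60 in untreated cells. HMOX1 and the glutathione genes, which share NRF2 as a regulator, moved in opposite directions. Genes of the amino acid and unfolded protein responses gave 3 higher and 3 lower of 35 (8.57% each), beside 6.09% and 3.08% of all genes. Among those lower, XBP1 fell by 1.12 on the log2 scale. Without replicate 1 or 2 at 4 h the lower count was 1, and without replicate 3 at 4 h or in the block it was 5.

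Of 31 chemokine, cytokine and NF-kappaB genes tested, 4 were higher and 6 lower, with 9 members below the filter. Without replicate 3 at 4 h the counts were 6 and 3, and without untreated replicate 3 they were 4 and 3. CXCL5, a neutrophil chemokine, had levels of 11.11, 10.61 and 11.41 at 4 h against 12.97, 13.13 and 13.05 in untreated cells (adjusted p = 1.12e-05), with all 3 probe sets passing. CCL20 had 9.26, 9.45 and 7.76 at 4 h against 11.38, 10.70 and 12.08 in untreated cells (adjusted p = 0.0216), a call that was lost without replicate 3 at 4 h (adjusted p = 0.107) and without untreated replicate 1 (0.0529) or 3 (0.0983). TNFRSF12A, the receptor of TWEAK, had 13.17, 13.05 and 12.48 at 4 h against 10.74, 10.62 and 10.82 in untreated cells. BIRC3, an NF-kappaB target that inhibits cell death, fell by 1.28 on the log2 scale.

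Transcriptional co-regulators and chromatin genes gave 12 higher and 4 lower of 43, or 2 lower without replicate 1 or 2 at 4 h or untreated replicate 3. The nuclear receptor genes VDR (1.84) and RARA (1.58) rose, and NR2F2 fell by 1.11 on the log2 scale. With the mean of the probe sets the changes were 1.17 for VDR, 0.74 for RARA and 1.40 for the protocadherin PCDH1. Axon guidance and contact genes gave 9 higher and 1 lower of 32, led by PCDH1 at 10.48, 10.24 and 9.69 at 4 h against 7.32, 7.68 and 7.50 in untreated cells, and the lower count was 0 without replicate 1 or 2 at 4 h or untreated replicate 2 or 3. WNT pathway genes gave 4 higher (14.8%) and 2 lower (7.41%) of 27, beside 6.09% and 3.08% of all genes. Without replicate 1 or 2 at 4 h the counts were 2 and 2. TCF7L2, a nuclear effector of the pathway, had a log2 change of 0.72. Of 13 tubulin genes, 2 were higher and 0 lower (1 lower at an unadjusted limma p under 0.05), TUBA4A among them (1.11), with 1 without replicate 1 at 4 h or untreated replicate 3 and 4 without untreated replicate 1.

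**Figure D3:**
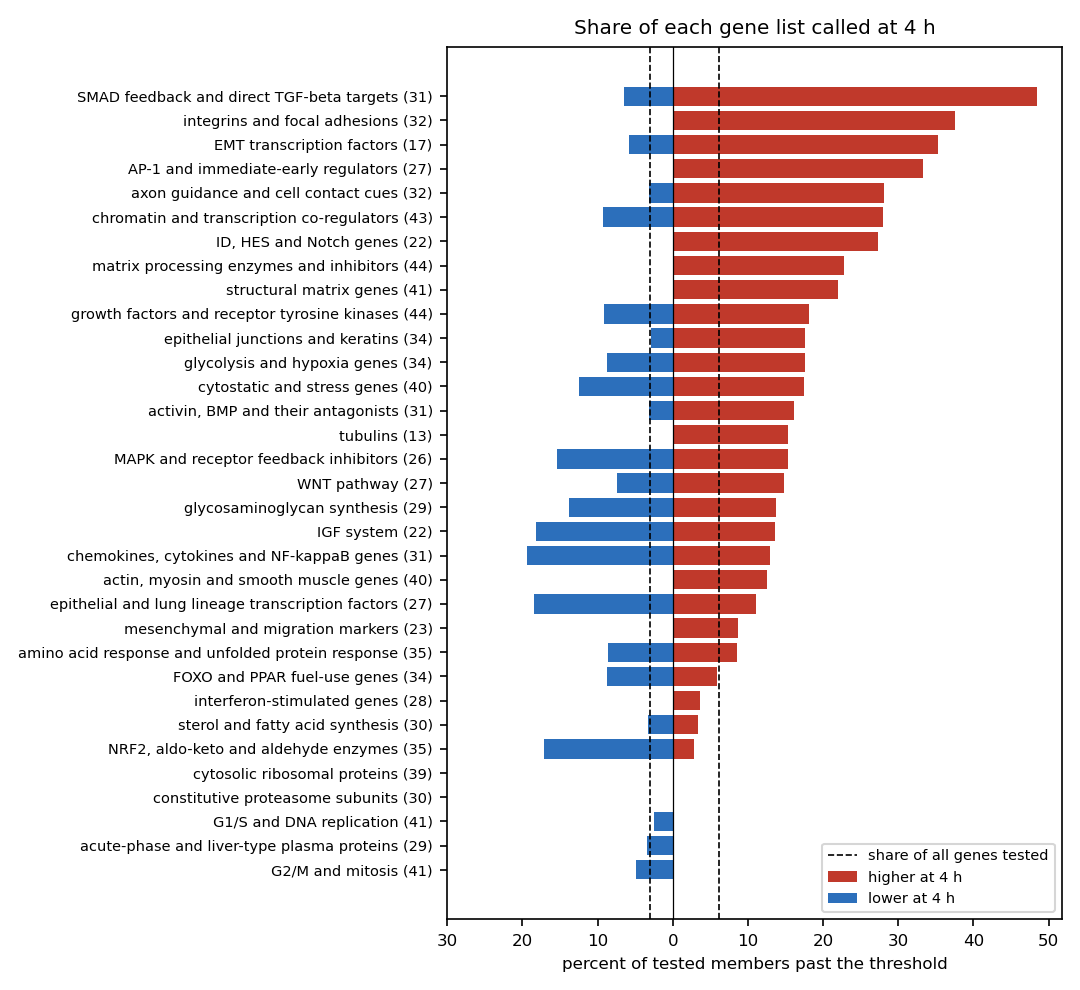
Percent of tested members of each gene list described that were higher at 4 h (red, to the right) or lower (blue, to the left), with the number tested in parentheses. Dashed lines mark the shares of all genes, 6.09% and 3.08%; the list of SMAD feedback genes and targets is at the top with 15 of 31 higher, and the ribosomal protein and proteasome lists have none in either direction.

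TGF-beta is cytostatic for many epithelial cells, and regulators of the cell cycle changed in both directions. Of 40 cytostatic and stress genes, 7 were higher and 5 lower, or 5 and 3 without replicate 1 or 2 at 4 h or untreated replicate 1. GADD45B, a stress sensor, rose by 1.36, BCL2L11, which encodes the pro-apoptotic protein BIM, by 1.61, and CDKN1A, the p21 inhibitor of cyclin-dependent kinases, by 1.02. Averaging probe sets gave a change of 0.80 for BCL2L11, and CDKN1A then did not pass (0.47, adjusted p = 0.134). MYC had levels of 12.19, 12.50 and 12.26 at 4 h against 12.63, 12.89 and 12.98 in untreated cells and did not pass (adjusted p = 0.0693), although the groups did not overlap. With the experiment as a block the lower count was 9.

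Genes of DNA replication and mitosis varied among the arrays within each group. In the list of each, 0 of 41 members had a log2 change above 0, beside 47.3% of all genes. Of 41 genes for G1/S and replication, 0 were higher and 1 was lower by limma, and 13 were lower at an unadjusted p under 0.05; the median was -0.42. On each array the median of the list relative to the mean of the 6 arrays was -0.16, 0.02 and -0.49 at 4 h and 0.94, -0.34 and 0.10 in untreated cells, so that the groups overlapped. Without untreated replicate 1, the highest array, the median was -0.09 and 0 were lower, and without untreated replicate 2 it was -0.73 and 7 were lower. Leaving out replicate 1 or 2 at 4 h or untreated replicate 3 also gave 0. Of 41 genes for G2/M and mitosis, 0 were higher and 2 lower, with the same counts at an unadjusted p under 0.05. Their array medians were 0.16, 0.21 and -1.09 at 4 h and 1.21, -0.86 and 0.43 in untreated cells. The median of this list was -0.51 with all arrays. Without replicate 1, 2 or 3 at 4 h it was -0.71, -0.73 and -0.07, and without untreated replicate 1, 2 or 3 it was -0.03, -1.06 and -0.45. The lower count was 1 without any 1 array other than untreated replicate 2. With the untreated numbers 2 and 3 exchanged in the block, 4 of the G1/S genes were lower.

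**Figure D4:**
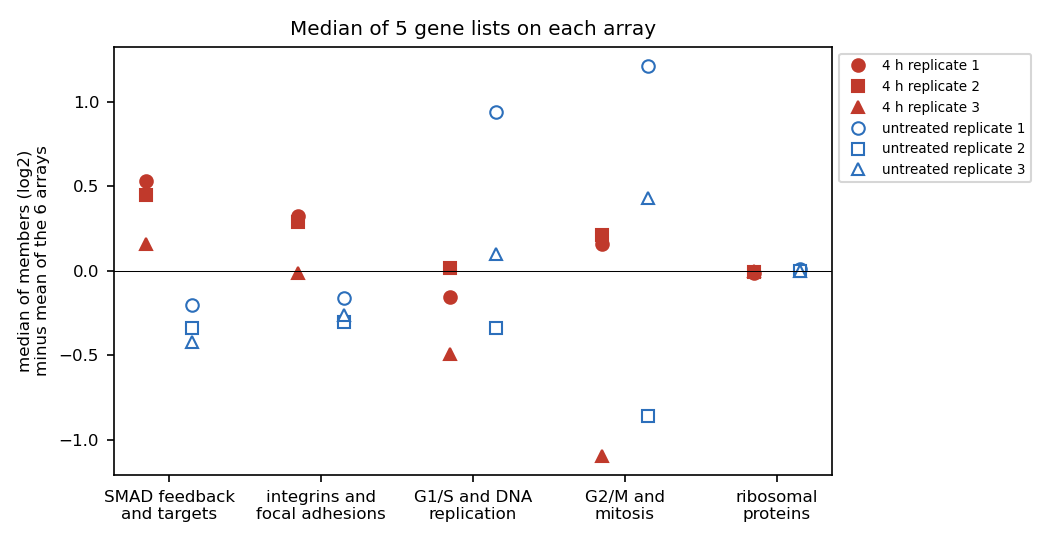
Median log2 level of the members of 5 gene lists on each array, minus the mean of the 6 arrays for each member, with filled red symbols for 4 h and open blue symbols for untreated cells; the symbol shape gives the replicate. The SMAD and integrin lists separate the groups, the cell cycle lists overlap between the groups and spread widely among the untreated arrays, and the ribosomal list lies at 0 on all 6 arrays.

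Several lists stayed at or below the background share. Ribosomal proteins gave 0 of 39 in either direction by limma, with 1 higher and 2 lower at an unadjusted p under 0.05. Constitutive proteasome subunits gave 0 of 30, with 1 lower at an unadjusted p under 0.05 and 1 lower past the adjusted threshold without untreated replicate 2 or when the experiment was a block. Of 28 interferon-stimulated genes, 1 was higher and 0 lower (2 lower without replicate 3 at 4 h or in the block, and 1 without untreated replicate 1), with 3 higher and 5 lower unadjusted. Of 30 sterol and fatty acid genes, 1 was higher and 1 lower, and neither passed without replicate 1 or 2 at 4 h; the higher was lost without untreated replicate 2 or 3, and the lower without untreated replicate 1. Of 29 acute-phase and liver-type plasma protein genes, FGA was the 1 that was lower and 0 were higher, with no further gene at an unadjusted p under 0.05.

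To place 4 h in the time course, the 4 h arrays were also set against those of 1 h and 8 h, which share the 4 h arrays with the comparison above. Against 1 h, 191 genes were higher at 4 h (1.29%) and 71 lower (0.481%), which is 1.77% in either direction, and with the experiment as a block 331 and 134. Of the 900 genes that were higher at 4 h than in untreated cells, 183 (20.3%) were also higher at 4 h than at 1 h, and of the 455 that were lower, 68 (14.9%) were also lower than at 1 h. These calls depended on single arrays: 0 passed without replicate 2 at 4 h or replicate 1 or 2 at 1 h, 1 without replicate 1 at 4 h, 500 without replicate 3 at 4 h and 934 without replicate 3 at 1 h. Genes that still moved after 1 h included MYOCD (4 h minus 1 h 2.59), ANGPTL4 (2.56), MAF (2.47) and THBS1 (2.02) upwards, and IGFBP1 (-2.51), INHBB (-2.45), KIT (-2.11), EHF (-2.05) and CXCL5 (-1.61) downwards. In contrast, JUNB differed by -0.13 ± 0.22 (SE, adjusted p = 0.947), SMAD7 by -0.42 ± 0.38 (SE, adjusted p = 0.813) and SKIL by -0.09 ± 0.30 (SE, adjusted p = 0.979), and their means at 1 h were 13.08, 11.97 and 12.29, in the range of their later levels.

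Against 8 h, 168 genes were higher at 4 h (1.14%) and 178 lower (1.21%), which is 2.34% in either direction. A block for the experiment gave 360 and 313. Without the 3 arrays that the authors marked with an r, 1 of which is at 8 h, 527 genes differed. Leaving out 1 array gave 140 genes without replicate 2 at 4 h, 72 without replicate 3 at 4 h, 75 without replicate 1 at 8 h and 80 without replicate 2 at 8 h. Of the genes higher at 4 h than in untreated cells, 64 (7.11%) were lower at 4 h than at 8 h and 12 were higher. THBS1 was lower at 4 h than at 8 h by 1.36 (SE 0.35, adjusted p = 0.038), and COL4A1, a basement membrane collagen, had a 4 h minus 8 h difference of -2.03. TAGLN, which had not passed at 4 h, had a difference of -1.88. CXCL5 was still higher at 4 h than at 8 h, by 0.93 (SE 0.23).

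A level at 4 h beyond untreated, 1 h and 8 h, each at an adjusted p under 0.05, was found in 3 genes, 1 peak (0.00677%) and 2 troughs (0.0135%). TNFRSF11A, the receptor RANK, had levels of 11.13, 10.93 and 10.75 at 4 h. It had 9.64, 9.56 and 9.45 in untreated cells, 9.82, 9.71 and 10.57 at 1 h and 10.16, 9.55 and 10.35 at 8 h, and its mean went on to 8.35 at 72 h, below that of untreated cells. CDK6, a cyclin-dependent kinase of G1, had 9.93, 9.84 and 10.49 at 4 h, against 11.10, 11.25 and 10.96 in untreated cells, 11.09, 11.11 and 10.64 at 1 h and 11.25, 11.17 and 10.67 at 8 h, with a mean of 12.69 at 24 h. FMNL2, an actin-nucleating formin, had 10.56, 10.33 and 10.53 at 4 h, against 10.86, 11.09 and 10.96 in untreated cells, and its mean was 11.19 at 1 h and 11.02 at 8 h. Its change from untreated cells did not pass without replicate 2 at 4 h (adjusted p = 0.0615). The arrays at 4 h did not overlap those of the other 3 times in any of the 3 genes. The rule had chosen these genes on the same values, so this separation is no further support. With the experiment as a block 8 genes met the rule, and with the mean of all probe sets of a gene 0 did. The rule also gave 0 without replicate 1 or 2 at 4 h, replicate 1 or 2 at 1 h or replicate 1 or 2 at 8 h, and 9 without replicate 3 at 1 h. Of the probe sets tested for change against untreated cells, 5 of 7 passed for CDK6, 1 of 2 for TNFRSF11A and 1 of 2 for FMNL2.

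**Figure D5:**
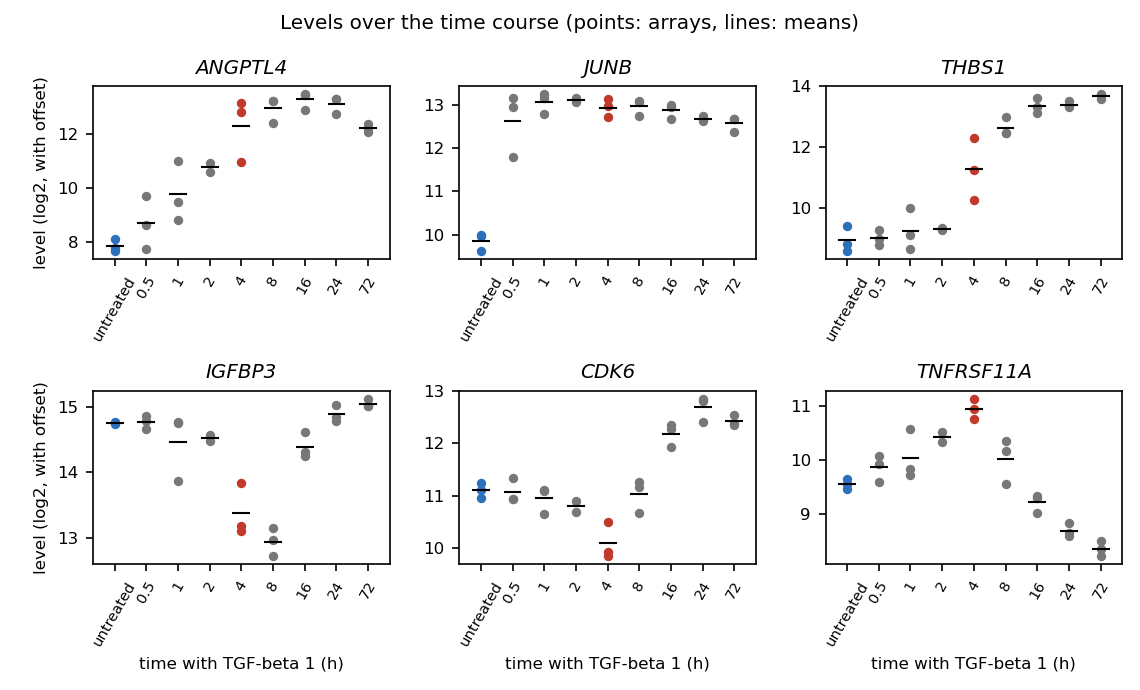
Log2 level of 6 genes on every array over the time course (horizontal axis in order of time, not to scale), with 4 h in red, untreated cells in blue and means as black lines. JUNB is at its plateau by 1 h, ANGPTL4 and THBS1 still climb at 4 h, IGFBP3 falls until 8 h and returns, CDK6 is lowest at 4 h and TNFRSF11A is highest at 4 h.

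At a p under 0.001 and a fold over 2 for 4 h against time 0, the authors' deposited table, whose model has terms for experiment and time, holds 505 probe sets that were higher and 137 that were lower. The probe sets selected in this way from the authors' deposited table name 396 genes tested here, and 376 of them passed the limma test on the same arrays.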

How the data were processed

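Per the file headers, the authors computed probe set values with the program readaffy as trimmed means (about 20% trimmed) of perfect match minus mismatch intensities scaled to 1000, quantile-normalized the arrays to 1 array as standard, added an offset of 50, set negative values to 0, added 50 and deposited the log10. For 4 h against time 0 the same deposited table gives a p-value and a fold, which the authors took from a linear model of experiment and time point. Per the file headers, a quality sheet gives the number of probe sets detected, the actin 3′ to 5′ ratio and a score named dark factor for each array. The deposited log10 values were converted to log2, and a second deposited table held the same values.

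Probe sets were named through the platform annotation, of 54675 leaving out 62 control sets, 1208 with several genes and 14084 with none. Symbols of 38088 of the 39321 probe sets left were updated by gene identifier. The probe set with the highest mean stood for each of 19539 genes, with sets of the _x_at type used only where no other existed. Genes above the median of all probe sets on at least 2 arrays were tested, 14771 in all. limma 3.58.1 (R 4.3.3) was fitted to all 26 arrays with 9 time groups, 17 residual degrees of freedom, an intensity trend and Benjamini-Hochberg adjustment, and was tested on simulated data. The number of arrays limits the precision.

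Replicate numbers are those of the labelled experiments, which pair the arrays. The main fit has no block, although the authors' model has a term for the experiment, and the text gives a blocked count where it moves a count by over 1.5 times. Deviations from the group means correlated at 0.32, -0.24 and -0.03 for the labelled pairs of 4 h and untreated arrays, and at 0.46 for replicate 3 at 4 h with untreated replicate 2. Genes named are the 15 largest rises and falls with separate groups, list members that passed or are needed, the peaks and troughs, and a fixed set of markers; some genes that met the rule are not reported here. Where a gene is given as changed from untreated cells, it passed without any 1 of the 6 arrays unless the text says otherwise. The comparison, members and lists were chosen with earlier results of these data known. Promoters are those of RefSeq. Alternatives were the block, normalization, filter, offset, probe set summary, variance model, thresholds and leaving out arrays.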

Additional observations from a re-analysis of the deposited data

How the results depend on the processing

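Against untreated cells 1355 genes passed. The count was 2113 over all probe sets, 781 with the arrays at 4 h and untreated alone, 731 at an adjusted p under 0.01, 410 with a change of at least 2-fold, and 836 to 1427 without 1 array. The replicate block gave 1811, and the block with the numbers of untreated arrays 2 and 3 exchanged 1955. Centring on the median gave 849 higher and 530 lower, and a second quantile normalization 869 and 530. Against 1 h 262 genes passed, with 465 in the replicate block, 562 in the exchanged block, 159 with the mean of the probe sets of a gene, 29 at an adjusted p under 0.01, 86 with at least 2-fold, and 0 to 934 without 1 array. Against 8 h 346 passed, with 673 in the block, 820 in the exchanged block, 527 without the arrays marked r, 89 at an adjusted p under 0.01, 82 with at least 2-fold, and 72 to 509 without 1 array; centring gave 139 higher and 214 lower, against 168 and 178. A peak or trough was found in 3 genes, in 8 with the block, 9 with the exchanged block, 5 over all probe sets, 0 with the mean of the probe sets, 0 at an adjusted p under 0.01, 0 with at least 2-fold and 0 to 9 without 1 array. The cause of these shifts was not tested, other than that fewer arrays or probe sets were used where named. The block lost no named gene. The exchanged block was added after seeing the data, because the order of array numbers and the deviations go against the labelled experiment numbers of untreated arrays 2 and 3. Weak signal near the offset limits what can be said of genes under a level of about 8.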

Other observations

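The genes in this section were chosen after their values were seen. Of 7 metallothionein genes tested, which encode small proteins that bind zinc and copper, 4 were higher at 4 h and 0 were lower by limma (5 and 0 at an unadjusted p under 0.05), and the median log2 change was 1.02. Of all genes 6.09% were higher and 3.08% lower, and 3114 of 14771 had an unadjusted limma p under 0.05 in either direction. MT1X had levels of 12.98, 12.72 and 11.51 at 4 h against 12.07, 10.13 and 10.31 in untreated cells, so that untreated replicate 1 lay above replicate 3 at 4 h. MT1F, MT2A and MT1HL1 had log2 changes of 1.78, 1.02 and 1.46. All 4 calls were lost with the 6 arrays alone and without replicate 1 or 2 at 4 h or untreated replicate 2 or 3, where the adjusted p of MT1X was 0.0798, 0.0609, 0.07 and 0.067. These genes have close paralogues whose probe sets can share signal. SLC30A1, a zinc exporter, had levels of 13.89, 13.83 and 13.79 at 4 h against 12.32, 12.75 and 12.77 in untreated cells, a log2 change of 1.22 ± 0.19 (SE, adjusted p = 0.000145), and its groups did not overlap.

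Single transcription factor genes outside the lists are given by array. NR0B1, an orphan nuclear receptor active in cells with high NRF2 activity, had levels of 10.34, 10.68 and 11.15 at 4 h against 12.43, 12.61 and 12.51 in untreated cells. MECOM, a zinc finger factor, had 10.01, 9.95 and 9.94 at 4 h against 11.38, 11.59 and 11.59 in untreated cells. PER2, a component of the circadian clock, had 11.01, 11.01 and 10.99 at 4 h against 12.10, 12.18 and 12.19 in untreated cells, and the homeobox gene HHEX had a log2 change of -1.52. The spread within each group of MECOM and PER2 was far below the difference between the groups. Of 34 HOX genes tested 5 were higher and 0 lower by limma (8 and 5 at an unadjusted p under 0.05), beside 6.09% and 3.08% of all genes: HOXD11 (1.70), HOXD10 (1.12), HOXC9 (0.97), HOXB9 (0.73) and HOXA10 (0.67). HOXA10 lost the call without any 1 of the 6 arrays, HOXD10 without replicate 1 or 2 at 4 h or untreated replicate 1 or 2, and HOXB9 without untreated replicate 3.

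Of 8 receptors of lysophosphatidic acid and sphingosine 1-phosphate, 3 were higher and 0 lower, beside 6.09% and 3.08% of all genes. The 3 were S1PR5, LPAR6 (1.13, or 0.64 with the mean of its probe sets) and LPAR5. The LPAR5 change of 1.61 did not pass without replicate 1 or 2 at 4 h (adjusted p = 0.13 and 0.0651) or untreated replicate 1 (0.0549), nor with the mean of its probe sets (0.0678). Of 54 genes with symbols that begin with KCN, 2 were higher and 3 lower, a share near the 9.17% of all genes. These are potassium channel genes together with some non-coding transcripts and channel regulators. KCNN4, a potassium channel opened by calcium, had levels of 10.05, 9.70 and 9.21 at 4 h against 8.08, 8.08 and 7.93 in untreated cells, whereas KCNJ2, an inward rectifier, had 8.21, 8.01 and 8.70 at 4 h against 9.56, 10.67 and 10.00 in untreated cells. Of the 3 STEAP metalloreductase genes, STEAP1 and STEAP2 fell by 1.35 and 1.43 on the log2 scale, and STEAP3 rose by 0.58, a call that was lost without replicate 2 at 4 h (adjusted p = 0.0647). F3, tissue factor, which starts coagulation, and THBD, thrombomodulin, which restrains it, both rose, by 1.60 and 1.20.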
